A study of Mus musculus with 6 samples.

Results

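Nuclear genes of oxidative phosphorylation were compared between the pre-limbic cortex (PLc) of ketamine-treated and saline-treated mice. They were taken as every gene whose symbol in the deposited table starts with Nduf, Uqcr, Atp5, Cox4, Cox5, Cox6, Cox7 or Cox8, together with the Sdh genes Sdha, Sdhb, Sdhc and Sdhd. Of 83 such entries, 80 averaged 10 or more normalized counts across the 6 mice and are described here, out of 16127 genes that reached that level and 37620 that were listed. The other 3 were Cox8b, Cox7b2 and a second entry under the symbol Cox5b. The prefixes placed 37 genes in complex I, 4 in complex II, 7 in complex III, 16 in complex IV and 16 in complex V. The 80 hold 71 subunits of the assembled complexes and 9 others, among them the 4 complex I assembly factors Ndufaf1 to Ndufaf4 and Cox4nb, a neighbour of Cox4i1 that is not a respiratory chain gene. Ndufa4, which the prefix puts in complex I, is now known as a subunit of complex IV.

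Bulk RNA was sequenced from 3 mice given saline (mice 1, 6 and 10) and 3 given ketamine (mice 3, 5 and 9), with 1 library a mouse. All were C57Bl/6 wild-type animals aged 9 weeks, and the study used males. Ketamine, which blocks N-methyl-D-aspartate receptors, was injected intraperitoneally at 30 mg/kg on each of 5 successive days, and controls received the saline vehicle on the same schedule. The PLc was dissected 2 days after the last injection. Values are normalized counts, that is reads per gene divided by a size factor for the library. In bulk tissue, fewer cells of a type and less RNA per cell cannot be told apart.

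Oxidative phosphorylation couples electron transport in the inner mitochondrial membrane to the making of ATP. Complex I oxidises NADH, complex II oxidises succinate, complex III passes electrons from ubiquinol to cytochrome c, complex IV reduces oxygen and complex V is the ATP synthase. Complexes I, III, IV and V are built from subunits of both the nuclear and the mitochondrial genome, while complex II is wholly nuclear. Neurons rely on this pathway for most of the ATP spent on ion pumping and synaptic transmission.

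Reads per library lay between 26273436 and 32643726. Of all reads, the 80 genes took 0.907, 0.930 and 1.06% with saline (mice 1, 6 and 10) and 0.955, 0.855 and 1.31% with ketamine (mice 3, 5 and 9). Cortical excitatory markers were detected in every library, with summed normalized counts of 182546 to 233923 in saline mice and 105126 to 177005 in ketamine mice, and 8 of 8 had a lower mean in ketamine mice. The striatal list, of which 17 of 18 genes reached the minimum level, summed to 13006 to 16158 in saline mice and to 83253, 43706 and 14025 in ketamine mice 3, 5 and 9. Drd3, Isl1 and Six3, named for this result, had no read in saline mice 1 and 6. The striatal list as a whole was read in every saline mouse, as the sums show. The 7 olfactory bulb markers, all of which were detected, summed to 246 to 877 in saline mice and to 1874, 1463 and 11050 with ketamine, mouse 9 being the highest. The 7 oligodendrocyte markers summed to 376842 in saline mouse 10, to 43631 to 55852 in the other saline mice and to 104772 to 160343 in ketamine mice. The part of these tissue differences in the values below was not tested.

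No oxidative phosphorylation gene passed the test for a difference between ketamine and saline. With limma on log2(normalized count + 1), 0 of 80 genes passed an adjusted p of 0.05, and 0 of 80 had an unadjusted p under 0.05. Over all genes tested the shares were 0% and 5.81%. The smallest unadjusted p among the 80 was 0.307, for Ndufaf2, with a limma adjusted p of 0.999. On recovered reads, edgeR called 0 of the 80 (0% of all genes, 6.24% unadjusted) and DESeq2 called 0 of the 80 (1.13% of all genes, 6.54% unadjusted). A 95% interval of a log2 fold change reached a median of 0.45 to either side of the estimate, from 0.28 in the most precise gene to 1.05 in the least. These intervals are for 1 gene at a time, without adjustment. Changes inside such an interval were not detectable with 3 mice a group. Larger changes could also go uncalled after adjustment. Over all 16127 genes limma called 0, although log2 fold changes reached 5.15.

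With limma, the log2 fold changes lay on both sides of 0. Their median was 0.0013, beside -0.014 over all genes tested, with 44 genes higher and 36 lower in ketamine. The share higher was 55.0%, beside 47% over all genes. TMM scaling gave 54 higher and 26 lower, upper-quartile scaling 52 and 28, DESeq2 60 and 20 and edgeR 62 and 18, with medians of at most 0.048. A change of scaling moves all genes together. The shares over all genes are not given for these other fits, so their counts are no result about the 80 genes. By complex, the limma medians were 0.000012 in complex I (19 higher, 18 lower), 0.038 in complex II (2 and 2) and 0.021 in complex III (6 and 1). They were -0.038 in complex IV (6 and 10) and 0.017 in complex V (11 and 5). The groups overlapped in all 80 genes, whereas over all genes tested every ketamine mouse lay above every saline mouse in 5.69% and below in 4.66%.

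**Figure D1:**
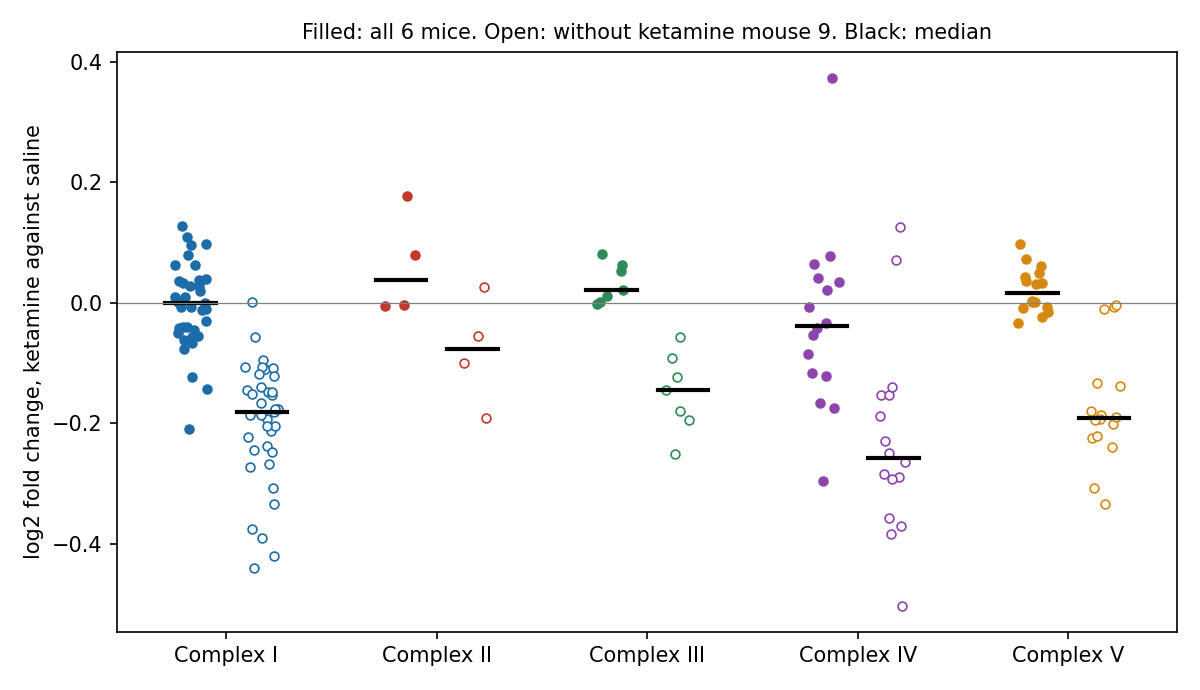
Log2 fold change of each of the 80 genes, ketamine against saline, by complex. Filled points use all 6 mice, open points leave out ketamine mouse 9, and black bars are medians. With all 6 mice the points lie on both sides of 0 in every complex (median 0.0013 over the 80 genes), and without mouse 9 the median is -0.19 and 76 of 80 lie below 0.

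Behind the close means lay a spread between mice, which for ketamine mice 5 and 9 ran through all 5 complexes. Summed over the 80 genes, normalized counts came to 283664, 278874 and 305792 with saline (mice 1, 6 and 10) and to 270801, 251376 and 365119 with ketamine (mice 3, 5 and 9). The mean was 289443 ± 14360 (SD, n = 3) with saline and 295765 ± 60842 (SD, n = 3) with ketamine. Ketamine mice 3 and 5 thus lay below all saline mice and ketamine mouse 9 above all of them. Summed by complex, the same held for mice 5 and 9 in all 5 complexes. The sum of mouse 3 lay below all saline mice in complexes I, III and IV. It was within the saline range in complex II (20216, saline 19198 to 20267) and complex V (101177, saline 99650 to 107189). The median deviation from the saline mean, on the log2 scale, was -0.057, -0.050 and 0.12 with saline and -0.12, -0.24 and 0.40 with ketamine, in the same order of mice.

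Ketamine mouse 9 was the highest of the 6 mice for 73 of the 80 genes, beside 29.4% of all genes tested. It led in 35 of 37 complex I genes, 3 of 4 complex II genes, 6 of 7 complex III genes, 13 of 16 complex IV genes and 16 of 16 complex V genes. Ketamine mouse 5 was the lowest of the 6 for 63 of the 80 (15.1% of all genes tested) and lay below every saline mouse for 74 (25.4%). Ketamine mouse 3 lay below every saline mouse for 47 (28.6%). These are counts within a fixed set of 6 libraries and carry no test.

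**Figure D2:**
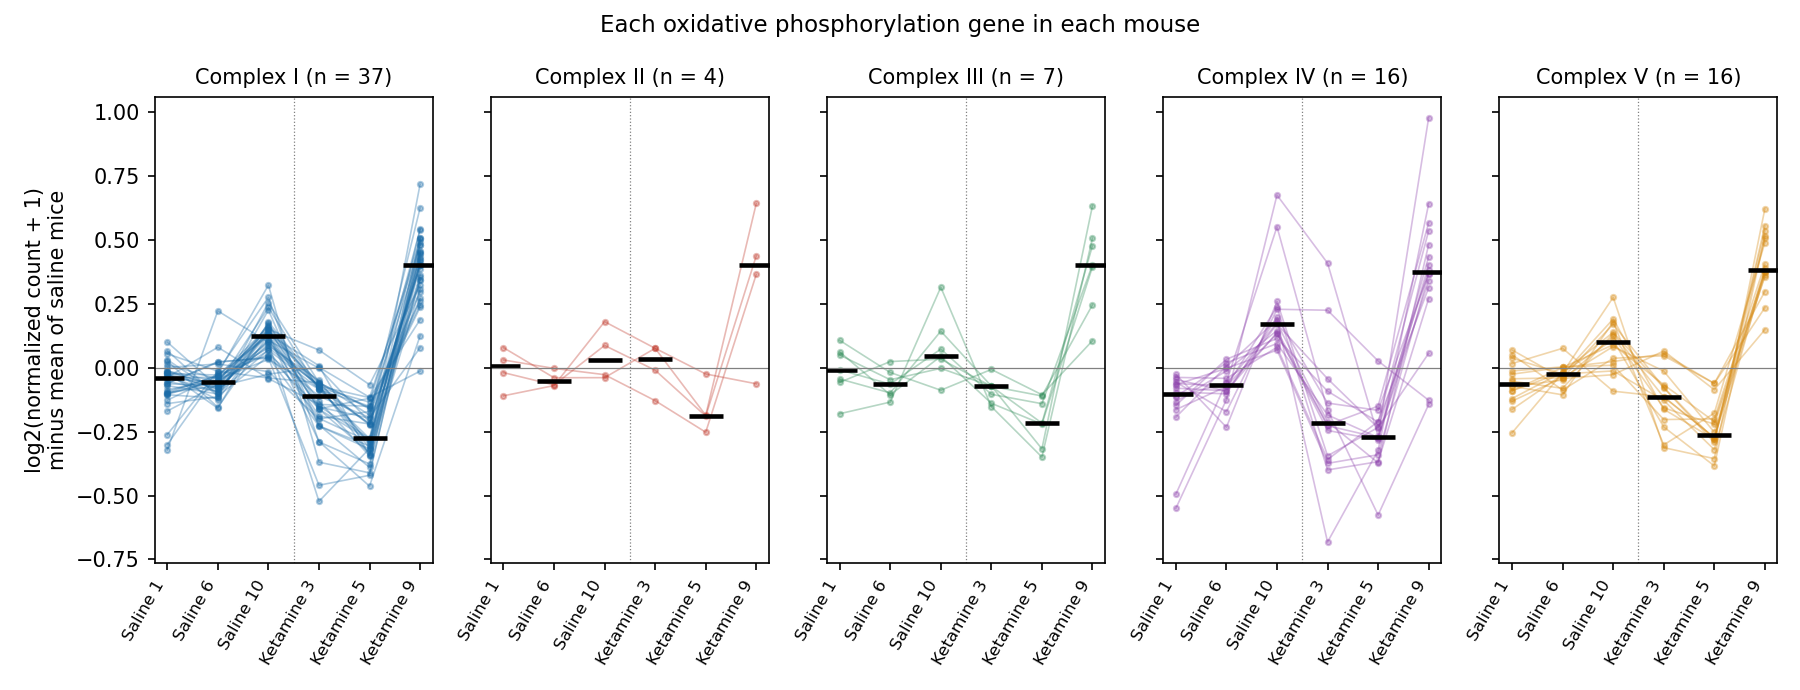
Log2(normalized count + 1) minus the mean of the saline mice for each gene in each mouse, 1 panel per complex, with 1 line per gene and black bars for the median. Ketamine mouse 9 stands above the saline mice in every complex (median 0.40 over the 80 genes) and ketamine mouse 5 below (median -0.24).

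Complex I held the largest set. Its 7 core subunits, which carry the redox centres and are conserved from bacteria, gave a median of -0.0075 for the log2 fold change, 3 being higher and 4 lower. The 24 accessory subunits, which surround and stabilise the core, gave a median of 0.019, with 14 higher and 10 lower.

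Ndufb6, an accessory subunit of the membrane arm (chr4:40217624-40226454, mm9, minus strand), was split within the ketamine group. Its normalized counts were 1497, 1588 and 1603 in saline mice and 1135, 1167 and 2137 in ketamine mice 3, 5 and 9. Ketamine mice 3 and 5 lay below and mouse 9 above all saline mice, and limma gave a log2 fold change of -0.14 ± 0.25 (SE) with an adjusted p of 0.999. Ndufb11 had 1860, 1851 and 2130 with saline and 1867, 1708 and 2997 with ketamine, and Ndufa1 had 1050, 1038 and 1157 with saline and 1028, 996 and 1506 with ketamine. Both are small membrane-arm subunits encoded on the X chromosome, and in both ketamine mouse 9 was the highest.

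The assembly factors did not all follow this order. Ndufaf2, which acts late in complex I assembly, had 452, 399 and 485 in saline mice and 363, 322 and 484 in ketamine mice, so ketamine mouse 9 fell within the saline range and mice 3 and 5 below it. Its log2 fold change of -0.21 ± 0.19 (SE) had a 95% interval from -0.66 to 0.24 and an exact two-sided permutation p of 0.3, where 3 mice against 3 cannot go below 0.1. Ndufaf1 had 575, 572 and 605 with saline and 540, 510 and 616 with ketamine. Ndufaf4 had 840, 871 and 1000.4 with saline and 946, 861 and 1128 with ketamine, and the groups overlapped in both.

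All 4 subunits of complex II, or succinate dehydrogenase, were measured. This enzyme also belongs to the tricarboxylic acid cycle. Sdha, its flavoprotein (chr13:74459702-74487728, mm9, minus strand), had 12675, 11684 and 11685 in saline mice and 12654, 11803 and 11493 in ketamine mice. It was the only one of the 80 genes in which ketamine mouse 9 lay below every saline mouse, as it did in 34.3% of all genes tested, and its log2 fold change was -0.0039 ± 0.13 (SE), with a 95% interval from -0.30 to 0.29. Sdhb, the iron-sulphur subunit, had 3370, 3294 and 3238 in saline mice and 3018, 2771 and 4250 in ketamine mice.

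In the membrane anchors Sdhc and Sdhd, as in Sdhb, ketamine mouse 5 lay below and mouse 9 above every saline mouse. Ketamine mouse 3 lay below every saline mouse for Sdhb but within the saline range for Sdhc and Sdhd. Sdhc had 2245, 2309 and 2745 in saline mice and 2554, 2130 and 3783 in ketamine mice, and Sdhd had 1977, 1912 and 2128 in saline mice and 1990, 1757 and 2714 in ketamine mice. In all 3 genes the ketamine values spanned a wider range than the saline values. Ketamine mouse 9 held 1.29-fold the saline mean of Sdhb, 1.55-fold that of Sdhc and 1.35-fold that of Sdhd, beside 0.957-fold for Sdha.

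In complex III, Uqcrc1, a core protein of the matrix side (chr9:108838661-108851685, mm9, plus strand), had 6474, 6054 and 6244 in saline mice and 5948, 5794 and 7416 in ketamine mice. Uqcrfs1, the Rieske iron-sulphur protein, had 2981, 3154 and 3175 in saline mice and 2949, 2669 and 4319 in ketamine mice. In both, ketamine mouse 9 alone lay above the saline range. The small subunits Uqcrb and Uqcr11 reached 2867 and 2704 in that mouse, beside at most 2040 and 2151 in saline mice. Uqcrc2, named after its values were seen, was the complex III gene in which ketamine mouse 9 did not lead, with 5932, 5437 and 5182 in saline mice and 5483, 5120 and 5926 in ketamine mice.

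Complex IV is where paired isoforms allow a comparison within 1 subunit. The common isoforms, present in most tissues, were abundant. Scaled to mRNA length (the median spliced length of a gene's coding transcripts), mean levels in saline mice per kilobase of mRNA were 18726 normalized counts for Cox4i1, 14817 for Cox8a, 10968 for Cox6a1 and 8985 for Cox6b1. Cox4i1 headed all 80 genes, with Atp5b next at 16302. The alternative isoforms were at the bottom of the same order, at 138 for Cox6a2 (the heart and muscle form), 98.2 for Cox7a1 (also heart and muscle), 63.6 for Cox4i2 (a form known from lung and hypoxia) and 55.3 for Cox6b2 (a testis form).

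The common isoforms split the ketamine mice in the same way. Cox4i1 (chr8:123192190-123198109, mm9, plus strand) had 11733, 12861 and 13550 normalized counts in saline mice and 11166, 10504 and 17152 in ketamine mice 3, 5 and 9. Cox6a1 (chr5:115795651-115798990, mm9, minus strand) had 5549, 5908 and 7330 in saline mice and 4712, 4819 and 7498 in ketamine mice. Cox7a2 had 3165, 3308 and 3476 in saline mice and 2557, 2617 and 4271 in ketamine mice. In each of the 3, ketamine mice 3 and 5 lay below and mouse 9 above every saline mouse, and none passed the test, with limma adjusted p-values of at least 0.999.

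The rare isoforms had low counts and wide errors. Cox6b2 (19.2, 26.1 and 46.1 in saline mice; 38.2, 23.5 and 57.1 in ketamine mice) had the highest log2 fold change of the 80, 0.37 ± 0.45 (SE), and Cox7a1 (24.0, 32.8 and 50.5; 30.3, 22.6 and 30.8) the lowest, -0.30 ± 0.35 (SE). In both the groups overlapped. Cox4i2 had 40.2, 46.3 and 52.7 in saline mice and 28.4, 36.7 and 72.5 in ketamine mice, and Cox6a2 had 88.1, 76.2 and 108 in saline mice and 70.5, 76.2 and 93.4 in ketamine mice. Ndufa4 and its paralogue Ndufa4l2, known as a gene induced by hypoxia, differed in level as the Cox pairs did, at 10899 and 58.3 normalized counts per kilobase, with log2 fold changes of -0.013 ± 0.21 and -0.041 ± 0.37 (SE).

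Cox4nb (chr8:123177814-123192012, mm9, minus strand), named after its values were seen, starts beside Cox4i1 and is read from the opposite strand. It had 1554, 1434 and 1893 in saline mice and 1888, 1645 and 1479 in ketamine mice. Ketamine mouse 9 thus lay within the saline range for Cox4nb and above it for Cox4i1.

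In complex V, ketamine mouse 9 led in every gene. Atp5b, the catalytic beta subunit of the F1 head (chr10:127520329-127527447, mm9, plus strand) and the member with the most counts, had 32326, 29366 and 32010 in saline mice and 32233, 29899 and 36714 in ketamine mice. Its mean was 31234 ± 1625 (SD, n = 3) with saline and 32949 ± 3463 (SD, n = 3) with ketamine, a log2 fold change of 0.073 ± 0.16 (SE) with a 95% interval from -0.30 to 0.44. Atp5a1, the alpha subunit, had 25003, 23156 and 23383 in saline mice and 24936, 22454 and 26419 in ketamine mice. In both, ketamine mouse 9 was highest by a smaller step than in most of the set, at 1.18-fold and 1.11-fold the saline mean.

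Subunit c, which forms the rotating ring, is made from several genes with the same mature protein. Atp5g1 had 2620, 2791 and 2968 in saline mice and 2663, 2410 and 3617 in ketamine mice. Atp5g3 had 5366, 5764 and 6420 in saline mice and 5525, 4763 and 8569 in ketamine mice. Atp5g2 stands in the table under the symbol Gm10175 and was found by its Ensembl identifier, at 1597, 1657 and 1794 in saline mice and 1722, 1641 and 2705 in ketamine mice. Ketamine mouse 9 was the highest for all 3.

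**Figure D3:**
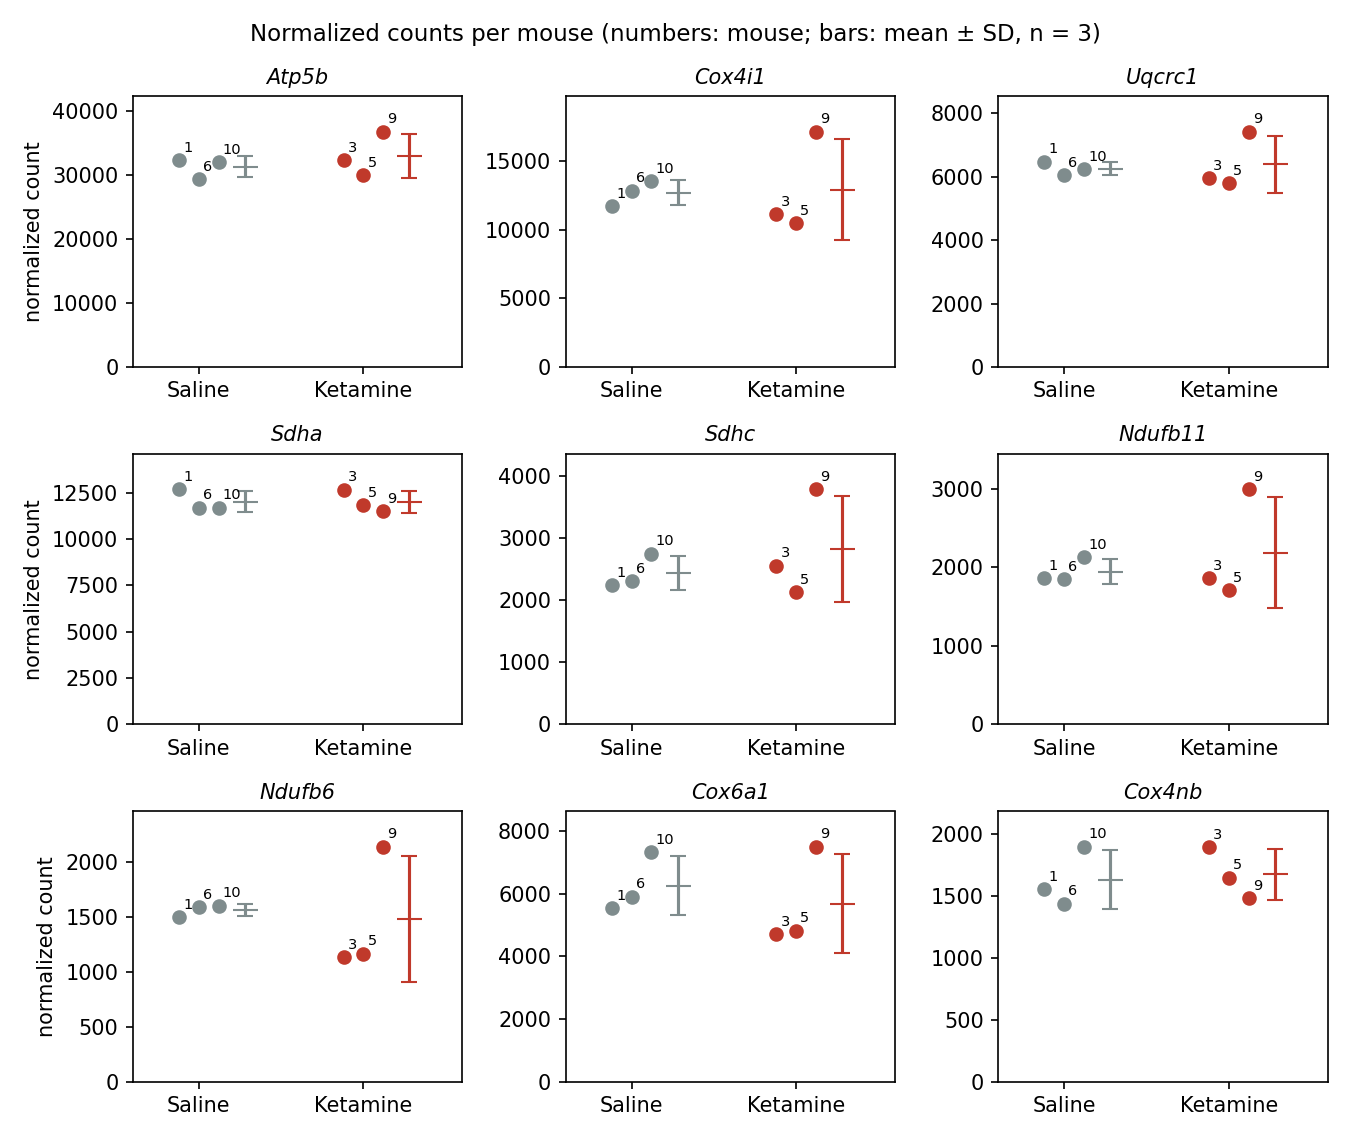
Normalized counts of 9 genes in each mouse, with mouse numbers beside the points and the mean ± SD of each group (n = 3) to the right, on axes that start at 0. Ketamine mouse 9 is the highest for every gene shown except Sdha (11493, below all saline mice) and Cox4nb (1479, within the saline range).

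A further 6 subunits also stood under another gene's symbol and were outside the prefix rule. They were Ndufa11, Ndufb4, Ndufc2, Ndufs5, Ndufs6 and Uqcr10, named after their values were seen. Together with Atp5g2 they gave 3 higher and 4 lower, and ketamine mouse 9 was the highest for 7 of 7. With these genes included, 0 of the larger set were called and the median log2 fold change was 0.00075.

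The sign and size of the median depended on which ketamine mice were included. Without ketamine mouse 9, the median log2 fold change of the 80 genes was -0.19, with 76 lower and 4 higher, beside 51.1% lower over all genes tested. In that fit 8 of the 80 had an unadjusted p under 0.05, all lower, against 4.26% of all genes in that direction. They were Ndufb6, Cox7a2, Ndufa8, Atp5l, Ndufaf2, Cox6a1, Ndufc1 and Cox8a, of which Ndufa8, Atp5l and Ndufc1 are named for this result. Among these 8 the lowest log2 fold change was that of Ndufb6, at -0.44 ± 0.094 (SE). None passed the adjusted threshold, with a smallest limma adjusted p of 0.247, and over all genes that fit called 0.0062%. Without ketamine mouse 5 the median was 0.13 with 70 higher and 10 lower, and without ketamine mouse 3 it was 0.072 with 70 higher and 10 lower.

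The same order of mice was seen with mRNA length over all genes. The 80 mRNAs are short, with a median of 724 nucleotides and a range from 322 to 4933, and 41 of them are under 750. Among the 1175 other genes under 750 nucleotides, the median deviation was -0.059, -0.12 and 0.26 in ketamine mice 3, 5 and 9. Among the 1628 other genes of 5000 nucleotides or more, it was 0.10, 0.16 and -0.47. The 41 short members had medians of -0.16, -0.28 and 0.43, in the same directions as the other short genes and larger in size. The 5 members of 2000 to 3000 nucleotides, which include Sdha and Ndufs1 (named for its length), had medians of 0.0016, -0.12 and 0.15. Among the 3851 other genes of that length the medians were -0.010, -0.0018 and 0.0038. The single member above 3000 was Cox4nb. The part of mRNA length in the differences between mice was not tested.

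**Figure D4:**
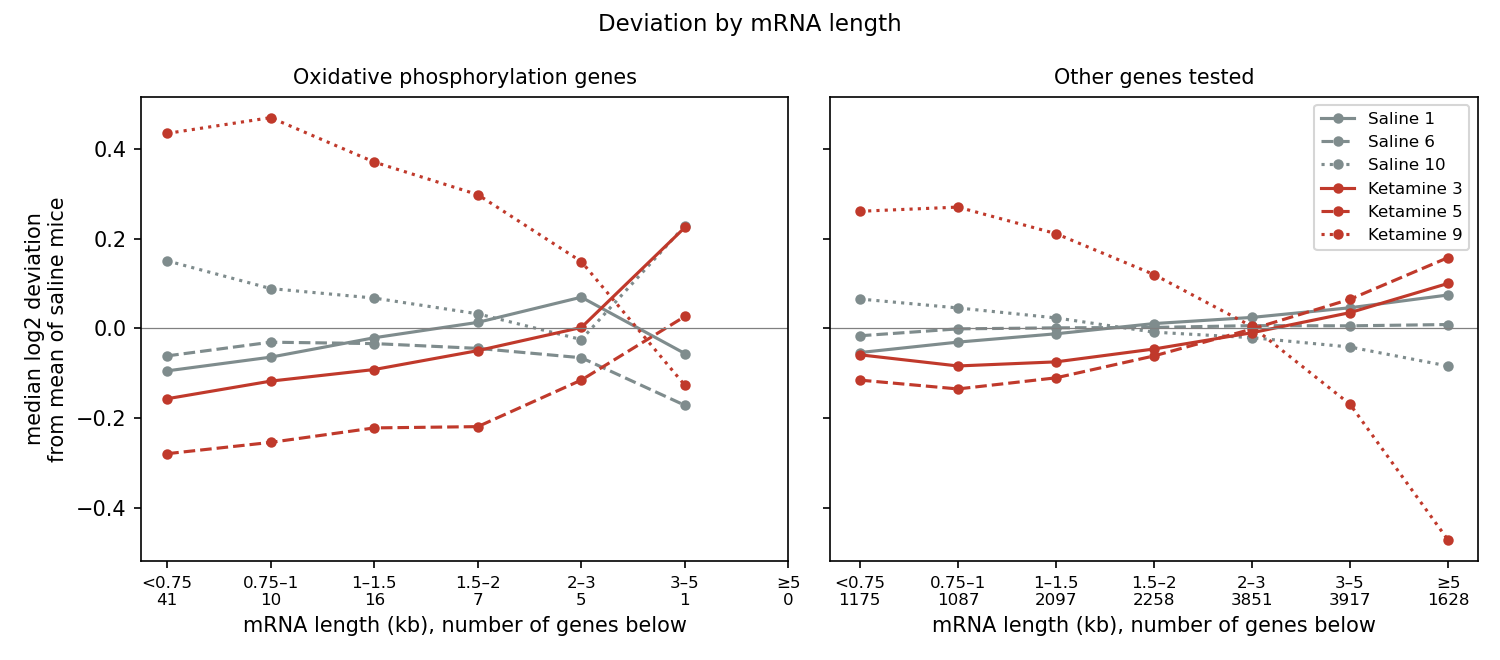
Median log2 deviation from the mean of the saline mice against mRNA length in kilobases, for the oxidative phosphorylation genes (left) and the other genes tested (right), with 1 line per mouse and the number of genes under each bin. Ketamine mouse 9 runs from 0.43 in the shortest members and 0.26 in the shortest other genes to -0.47 in the longest other genes, and ketamine mice 3 and 5 slope the other way. The bins of members above 1500 nucleotides hold 7, 5 and 1 genes.

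The 13 subunits encoded in mitochondrial DNA are transcribed by a separate polymerase. Of these, 12 reached the minimum level, with 8 higher and 4 lower in ketamine, a median log2 fold change of 0.049 and 0 called by limma. Reads from the mitochondrial genome made up 7.21 to 8.85% of each saline library and 8.37, 7.65 and 10.1% of the ketamine libraries of mice 3, 5 and 9. The catalytic subunit mt-Co1 had 622435, 628539 and 694976 in saline mice and 656683, 614009 and 752678 in ketamine mice, so that mouse 9 was again the highest. The subunit mt-Nd5 went the other way, with 149238, 147238 and 146048 in saline mice and 158253, 155918 and 111971 in ketamine mice.

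Genes that work with the complexes but fall outside the prefixes were examined as lists. Of 5 further subunits and carriers, 1 was higher and 4 were lower, and 0 were called by limma. Among them were cytochrome c1 (Cyc1) and cytochrome c (Cycs, named for its role and not for its p). Cyc1 had 3508, 3444 and 3433 in saline mice and 3625, 3404 and 4703 in ketamine mice. Of 40 assembly factors found, 16 were higher and 24 lower, with a median log2 fold change of -0.010 and 0 called. In 2 of them every ketamine mouse lay above every saline mouse (5.69% of all genes tested), namely Tmem186 (451, 459 and 485 against 610, 543 and 494) and Atpaf1, named after its values were seen, which helps to build the F1 head (1626, 1456 and 1582 against 1799, 1706 and 1781). Neither passed limma's test (adjusted p 0.999 for both).

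Nuclear respiratory factor 1 (NRF1) and the ETS-family protein GABPA are known activators of many of these genes, and their letters were looked for in promoters. A part of these factors in the differences between mice was not tested. RefSeq promoter windows of 300 bases, from 250 before to 50 after the start, were at hand for 62 of the 80 genes (build GRCm38.p6). The letters GCGCATG, part of the NRF1 core and searched on either strand (CATGCGC), were in 12 of the 62, beside 4.04% of all 27025 windows. The ETS letters CCGGAAG, on either strand, were in 16 of the 62 beside 9.12% of all windows, and TATAAA in 5 of the 62 beside 14.2%. Such a match is a description of the letters and not of binding. The 250 bases before the start are printed for the 3 genes in which they hold the NRF1 letters on both strands, overlapping as a palindrome. They read 5′ to 3′ on the gene's strand, with the NRF1 and ETS letters of either strand in capitals. They are at chr5:115348959-115349208 (minus strand) for Cox6a1, chr4:24897833-24898082 (plus strand) for Ndufaf4 and chr5:108434400-108434649 (minus strand) for Atp5k, a subunit of the ATP synthase membrane part.
Cox6a1: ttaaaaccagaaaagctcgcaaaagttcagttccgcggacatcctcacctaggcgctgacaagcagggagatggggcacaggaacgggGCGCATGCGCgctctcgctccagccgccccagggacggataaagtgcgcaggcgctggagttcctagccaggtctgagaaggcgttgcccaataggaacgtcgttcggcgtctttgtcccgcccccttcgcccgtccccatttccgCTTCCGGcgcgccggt
Ndufaf4: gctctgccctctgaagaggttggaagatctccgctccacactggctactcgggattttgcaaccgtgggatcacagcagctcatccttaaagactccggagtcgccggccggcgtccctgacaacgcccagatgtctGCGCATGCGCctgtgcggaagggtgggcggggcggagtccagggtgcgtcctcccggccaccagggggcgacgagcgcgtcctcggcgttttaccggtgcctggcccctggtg
Atp5k: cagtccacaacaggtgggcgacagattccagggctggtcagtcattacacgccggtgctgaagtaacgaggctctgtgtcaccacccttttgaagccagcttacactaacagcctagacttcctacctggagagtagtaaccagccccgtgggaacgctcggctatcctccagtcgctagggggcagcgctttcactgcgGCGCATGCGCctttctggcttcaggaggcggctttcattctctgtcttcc

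Cox6a1 is the one of the 3 whose 250 bases also hold the ETS letters. The printed bases of Ndufaf4 overlap another gene, Gm46848, and those of Atp5k overlap Gm34319. Atp5k, named for its promoter, had normalized counts of 1740, 1700 and 2071 in saline mice and 1484, 1617 and 2567 in ketamine mice, which put ketamine mice 3 and 5 below and mouse 9 above the saline mice, as with Cox6a1. Ndufaf4 differed from both, since its values in ketamine mice 3 and 5 lay within the saline range.

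The reads of some members could not be assigned to 1 gene with certainty, since the strand setting of the counting is not given in the sources used here. Exon bases of 19 of the 80 genes overlap another gene in GENCODE M1, and for 14 that gene had a mean of at least 10 normalized counts. Among those named, for example, Ndufb11 shares 117 bases with Rbm10 and Ndufb6 shares 257 with 2010003O02Rik.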

How the data were processed

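RNA from the PLc of 6 mice was analysed, and condition and mouse number were read from the sample labels. Per the submitters' processing notes and the study's methods, reads were aligned to mm9 with TopHat2 2.0.11, counted per gene with HTSeq and normalized with DESeq2. The deposited table holds signal values, which the authors obtained from read counts by dividing each library by its size factor and keeping 2 decimals. Dividing by 1 step per library returned whole reads for 100% of values (tolerance 0.006 normalized counts), and these reads were used for edgeR and DESeq2. The annotation and strand setting are not given in the sources used here.

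Log2(normalized count + 1) was compared with limma 3.58.1 in R 4.3.3 (empirical Bayes with trend, two-sided) over the 16127 genes averaging 10 or more normalized counts, with Benjamini-Hochberg adjusted p-values and a threshold of 0.05. A fold change on this scale understates that of low genes. Alternatives were edgeR 4.0.16 and DESeq2 1.42.0 on recovered reads, other pseudocounts, filters and scalings, no trend, and each mouse left out. Tests were checked on simulated data. Each library came from its own mouse, and litters or batches are not given in the sources used here. The mRNA lengths are from GENCODE M1 on mm9, and promoters are from RefSeq. The members and lists were chosen with earlier results of these data known. Genes named are the 4 Sdh genes, the 6 complex I genes and the 4 genes of each of complexes III, IV and V with the smallest p, the most abundant gene of each complex, and isoform sets, except 1 gene that is not reported here. In each other list the 2 with the smallest p may be named. Others are marked where they are named.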

Additional observations from a re-analysis of the deposited data

How the results depend on the processing

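No alternative called any of the 80 genes. The median log2 fold change over them, and within each complex, moved by less than the spread between mice (SD 0.25 for their mean log2 value). That spread includes ketamine mouse 9, at 0.38 beside -0.13 and -0.24 in ketamine mice 3 and 5, so it does not show stable medians. Without ketamine mouse 9 the median went from 0.0013 to -0.19, and that of complex IV from -0.038 to -0.26. Genes lower in ketamine numbered 20 with DESeq2 and 18 with edgeR, beside 36 with limma. The shares over all genes are not given for DESeq2 and edgeR. Leaving out 1 mouse gave 4 to 70 genes higher, 10 to 76 lower, 0 to 1 with every ketamine mouse above every saline mouse and 0 to 46 below. Counts moved by over 1.5 times without ketamine mouse 3, 5 or 9 and, for genes lower, without saline mouse 10 (20). The genes with every ketamine mouse below every saline mouse numbered 46 without ketamine mouse 9 and 1 without saline mouse 1. Groups separate more easily with fewer mice, and the shares over all genes are not given for these smaller comparisons. The counts of genes whose groups did not overlap are therefore no result about the 80 genes. Some signs changed under other tools and scalings. With DESeq2, the log2 fold change was 0.031 for Cox4i1, 0.016 for Cox6b1, 0.032 for Ndufa4, 0.058 for Ndufa4l2, 0.0030 for Sdha and 0.027 for Sdhb. With edgeR it was 0.043 for Cox4i1, 0.0029 for Cox4i2, 0.028 for Cox6b1, 0.044 for Ndufa4, 0.070 for Ndufa4l2, 0.014 for Sdha and 0.038 for Sdhb. With TMM scaling it was 0.0073 for Cox4i1, 0.0025 for Ndufa4, 0.011 for Sdha and 0.0096 for Sdhb, with upper-quartile scaling 0.00080 for Cox4i1, 0.0047 for Sdha and 0.0031 for Sdhb, and with recomputed size factors 0.0012 for Sdha. Leaving out 1 mouse gave ranges that crossed 0: Atp5a1 -0.010 to 0.11, Atp5b -0.0075 to 0.14, Atp5g1 -0.14 to 0.15, Atp5g3 -0.19 to 0.24, Atp5sl -0.0036 to 0.18, Cox4i1 -0.23 to 0.12, Cox4i2 -0.50 to 0.16, Cox6b1 -0.29 to 0.13, Cox7a2 -0.36 to 0.013, Cox7a2l -0.14 to 0.17, Cox8a -0.28 to 0.051, Ndufa1 -0.095 to 0.20, Ndufa4 -0.24 to 0.13, Ndufa4l2 -0.42 to 0.20, Ndufb11 -0.12 to 0.28, Ndufb6 -0.44 to 0.016, Sdha -0.044 to 0.035, Sdhb -0.19 to 0.12, Sdhc -0.055 to 0.36, Sdhd -0.10 to 0.21, Uqcr11 -0.12 to 0.15, Uqcrb -0.19 to 0.28, Uqcrc1 -0.092 to 0.086 and Uqcrfs1 -0.14 to 0.20. The cause was not tested. No paired analysis was possible because mouse numbers are not shared between the groups. With 3 mice a group, changes inside the 95% intervals given above cannot be seen, and larger changes can also go uncalled after adjustment. The rare isoforms rest on few reads. Members by GENCODE name and the set without Cox4nb were added after seeing the data.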

Other observations

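Other pathways of energy metabolism were read from lists in the same fit. Of 18 genes of the tricarboxylic acid cycle and pyruvate oxidation, limma called 0. In ketamine 5 were higher and 13 lower, and the log2 fold changes had a median of -0.035. Their summed normalized counts were 90282, 84165 and 86634 in saline mice and 85759, 81884 and 87162 in ketamine mice 3, 5 and 9. In this sum ketamine mouse 9 lay within the saline range. By gene it was the highest of the 6 mice in 8 of the 18 (29.4% of all genes tested) and below every saline mouse in 2. Their mRNAs had a median length of 2254 nucleotides, beside 724 for the 80 genes. The part of mRNA length in this contrast was not tested. Of 16 glycolytic genes, 2 were higher and 14 lower, with a median of -0.075 and 0 called. The gene with the smallest p was Pfkl, the liver-type phosphofructokinase, with 6408, 6242 and 5344 in saline mice and 4251, 5260 and 5153 in ketamine mice (log2 fold change -0.30, limma adjusted p 0.931). Every ketamine mouse lay below every saline mouse for Pfkl, as for 4.66% of all genes tested.

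Of 15 regulators of mitochondrial biogenesis, 8 were higher and 7 lower, with a median of 0.032 and 0 called by limma. Esrrb, an orphan nuclear receptor, had 92.9, 81.1 and 82.4 normalized counts in saline mice and 54.8, 39.5 and 30.8 in ketamine mice. All ketamine values lay below all saline values, as for 4.66% of all genes tested. The log2 fold change was -1.05, with a limma adjusted p of 0.487. Nrf1, which encodes NRF1 and is named after its values were seen, had 398, 402 and 419 in saline mice and 425, 457 and 436 in ketamine mice. The ketamine values lay above the saline values, as for 5.69% of all genes tested, with an adjusted p of 0.999 by limma. Ppargc1a, the coactivator PGC-1alpha, had 1464, 1206 and 1353 in saline mice and 1674, 1675 and 1299 in ketamine mice, with an adjusted p of 0.999.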
